A study of Rattus norvegicus with 16 samples.

Results

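CpG-dense 1 kb windows of the rat genome that were methylated at 20 to 40% in the amygdala at postnatal day 7 are described here. Windows were chosen by 2 criteria, one on listing and one on measured levels. At least 17 distinct CpG positions of the window were listed in any of 10 libraries, a number called D below, and its mean level over the 4 high-fat P7 libraries lay from 20% to under 40%. These criteria gave 2254 windows on chromosomes 1 to 20, which are 10.2% of the 22057 windows with D of 17 or more and 2.62% of the 86065 windows that could be tested. The high-fat P7 levels and the listed positions chose the windows, so their values in those libraries are descriptions only, while the control libraries took no part in the choice of level. The control libraries did count in the listing and in the requirement of 10 or more reads per site in all 10 libraries.

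The series measured DNA methylation by reduced representation bisulfite sequencing, which reads CpG-rich restriction fragments, in the microdissected amygdala of female Long-Evans (LongEvans in the labels) rats. Their mothers ate a control diet, or a high-fat diet from 4 weeks before mating until the end of suckling, and the young themselves never ate it. The ages were postnatal day 7 (P7) and day 90 (P90, after weaning onto control diet), with 4 libraries for each of the groups control P7, high-fat P7, control P90 and high-fat P90. The labels name no cell sort, and nothing says that libraries of a group came from separate litters, so p-values measure the spread between these libraries. The age comparison used the 4 control P7 and 2 of the control P90 libraries (replicates 1 and 2); the other 6 P90 libraries, all 4 high-fat P90 ones among them, stood apart and are described at the end.

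Most CpGs of a mammalian genome are methylated, while CpG-dense stretches at promoters, called CpG islands, are usually free of methylation. A level between these states in a tissue sample can come from cells that differ, from copies of a locus that differ within a cell, as at imprinted genes, or from neighbouring CpGs that differ, as at the edge of an island. In brain, DNA methyltransferases go on adding methyl groups after birth and TET enzymes oxidise them to 5-hydroxymethylcytosine, which bisulfite sequencing reads as methylated. In bulk tissue a shift in the mix of cells and a shift within cells cannot be told apart.

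No annotation of the files' build, Rnor_6.0, was used here, so windows carry Rnor_6.0 positions and most have no gene name. Some could be tied to a gene start, because the spacing of their listed CpGs equalled the spacing of CpGs in 1 promoter of the RefSeq table (build GRCr8, 300 bases from 250 before to 50 after a start). This gave 222 promoters of 210 genes in 197 of the 2254 windows. The 5 promoters below show what such windows look like, as the 250 bases before the start with GRCr8 coordinates, 5′ to 3′ along the gene. Capitals mark the CpGs with at least 10 reads in all 10 libraries, whose values are given further on. The first 4 were called higher at P90, and the last was not called.
LOC134480864 (chr10:82991102-82991351, strand minus): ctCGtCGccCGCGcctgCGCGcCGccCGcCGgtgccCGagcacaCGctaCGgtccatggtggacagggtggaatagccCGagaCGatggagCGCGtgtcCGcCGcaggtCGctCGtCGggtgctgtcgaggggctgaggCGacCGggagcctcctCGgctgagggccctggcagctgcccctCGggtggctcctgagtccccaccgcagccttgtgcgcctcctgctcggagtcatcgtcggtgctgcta
Tbx1 (chr11:95915154-95915403, strand plus): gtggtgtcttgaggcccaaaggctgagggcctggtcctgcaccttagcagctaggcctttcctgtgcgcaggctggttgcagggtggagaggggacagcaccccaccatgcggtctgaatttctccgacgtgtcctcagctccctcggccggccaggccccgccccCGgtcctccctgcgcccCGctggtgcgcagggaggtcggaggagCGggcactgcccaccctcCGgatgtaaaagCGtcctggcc
Myo5c (chr8:84869793-84870042, strand plus): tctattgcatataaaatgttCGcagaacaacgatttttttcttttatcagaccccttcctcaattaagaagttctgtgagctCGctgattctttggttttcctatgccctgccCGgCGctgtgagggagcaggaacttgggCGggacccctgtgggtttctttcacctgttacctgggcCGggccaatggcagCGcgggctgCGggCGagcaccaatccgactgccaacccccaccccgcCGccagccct
Krtcap3 (chr6:30842476-30842725, strand minus): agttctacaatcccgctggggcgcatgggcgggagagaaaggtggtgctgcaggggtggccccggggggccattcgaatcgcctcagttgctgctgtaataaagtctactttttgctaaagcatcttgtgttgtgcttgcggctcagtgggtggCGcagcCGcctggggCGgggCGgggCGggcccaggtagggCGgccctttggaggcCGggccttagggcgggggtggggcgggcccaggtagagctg
Foxl3 (chr12:20928327-20928576, strand minus): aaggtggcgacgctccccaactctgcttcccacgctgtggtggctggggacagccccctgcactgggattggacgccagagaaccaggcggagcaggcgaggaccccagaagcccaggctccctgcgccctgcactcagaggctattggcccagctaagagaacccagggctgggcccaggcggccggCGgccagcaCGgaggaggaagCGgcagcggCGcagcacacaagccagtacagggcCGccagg
LOC134480864 had 25 of its 31 CpGs in capitals, Tbx1 5 of 15, Myo5c 10 of 14, Krtcap3 7 of 16 and Foxl3 5 of 15. The other CpGs of these sequences were not measured in every library, which says nothing of their methylation.

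The 2254 windows held 21550 used sites (a site is 1 CpG cytosine on 1 strand), at 17987 CpG positions. A window had a median of 7 used sites (range 3 to 89) and a median D of 25. Reads per window and library had a median of 325, with a 5th percentile of 99 and a 95th of 1125. The density in the rule was partly a matter of listing: 14.3% of all listed sites lay 1 bp from a better-read site of the same strand, and a site and its neighbour of that kind count as 2 positions in D. Without such positions the median was 19, and 1404 of the windows (62.3%) still reached 17. Only 14 of the used sites were of that kind, so levels were hardly touched, but the name CpG-dense holds for part of the windows only.

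Just inside the lower bound, windows at chr3:111561001-111562000 and chr17:54525001-54526000 both had a high-fat P7 level of 20.02%, and just outside it chr18:49486001-49487000 had 19.995% and chr3:160558001-160559000 had 19.993%. At the upper bound chr10:90551001-90552000 and chr12:37923001-37924000 lay inside, at 39.9999% and 39.999%, and chr17:12274001-12275000 and chr8:49738001-49739000 outside, at 40.02% and 40.03%. Levels on either side of a bound were nearly equal, and the bounds mark no break in the data.

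In control P7 libraries, whose levels the rule did not use, the windows had a median level of 29.8% (5th percentile 20.3%, 95th 41.1%). Of the 2254 windows, 1988 again lay from 20% to under 40%. Libraries of that group differed by a median SD of 3.66 points per window. High-fat minus control P7 had a median of -0.0614 points (5th percentile -5.74, 95th 5.25), given with no test because the rule used the high-fat libraries. The most even windows over the 4 control P7 libraries were chr1:266482001-266483000 (32.6%, 32.5%, 32.1% and 32.4%) and chr16:74072001-74073000 (39.7%, 39.5%, 39.0% and 39.4%). Evenness between libraries was not evenness within the window: single sites of the latter ran from 6.58% to 98.8%. The least even were chr3:154044001-154045000 (34.6%, 33.1%, 82.4% and 41.3%) and chr9:42589001-42590000 (59.8%, 20%, 39.7% and 52.6%). In the former, 1 library was more than 41 points above the other 3.

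The level of a window was rarely the level of its CpGs. Of the CpG positions, 31.2% were under 20% in control P7, 42.9% at 20 to 40%, 17.6% at 40 to 60%, 4.87% at 60 to 80% and 3.42% at 80% or more. In the 1328 windows with 6 or more used CpGs, the CpGs of a window had a median SD of 14.9 points and a median range of 45.8 points. The range was over 60 points in 353 of them (26.6%) and under 20 points in 82 (6.17%). The CpGs before and after the middle of a window differed by more than 20 points in 360 (27.1%). Near CpGs were more alike: successive CpGs up to 10 bp apart differed by a median of 7.51 points (4878 pairs), and those over 200 and up to 1000 bp apart by 22.4 points (728 pairs), where near CpGs also share reads.

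Both strands of a CpG are normally methylated alike. At 3563 CpGs used on both strands the median difference was 5.78 points, the correlation over CpGs was 0.406, and 279 (7.83%) differed by more than 30 points. Over all used sites of the members, a wider set, levels correlated at 0.830 to 0.871 between libraries of 1 group, where sites are not independent. A CpG with strands more than 30 points apart in the high-fat P7 libraries lay in 227 windows, and what sets these strands apart was not tested.

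Windows beside the set were mixed. The 953 tested windows next to a member had a median of 39.7% in control P7: 22.1% of them were under 20%, 28.3% at 20 to 40%, 34.5% at 40 to 80% and 15.0% at 80% or more. The corresponding median was 26.5% beside dense windows of 0 to 20% and 61.9% beside dense windows of 40 to 60%. Among the members, 156 adjoined another, in 77 runs of at most 3 windows. The 2 longest runs were chr2:161564001-161567000, with a mean of 28.8% in control P7 and 45.9% in control P90 and no window called, and chr3:43114001-43117000, with 27.7% and 47.0% and all 3 windows called higher. Members made up 7.41% (chromosome 11) to 13% (chromosome 3) of the dense windows of a chromosome.

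The comparison of adult with neonatal amygdala on control diet asks how these windows change as the brain matures. Most of them had a higher mean level at P90, and a minority were called higher (below). The mean over the 2254 windows was 31.8%, 28.1%, 30.3% and 30.6% in control P7 replicates 1 to 4, and 36.1% and 36.7% in the control P90 libraries. The 4 high-fat P7 libraries had 31.6%, 31.0%, 27.5% and 30.2%. The one at 27.5% lay below the control P7 range and the others within it. Both adult libraries were above all 8 neonatal libraries, of which the rule used the high-fat ones. The median change per window was +5.34 points (5th percentile -7.57, 95th 22.1) against 0.518 points over all 86065 windows, and 1701 members (75.5%) had a higher mean at P90. All 86065 windows had a median level of 86.1% in control P7. Windows at 20 to 40% with D under 17 had a larger median change, +7.47 points. Dense windows under 20% had +5.24 points and those at 40 to 60% +2.99.

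**Figure D1:**
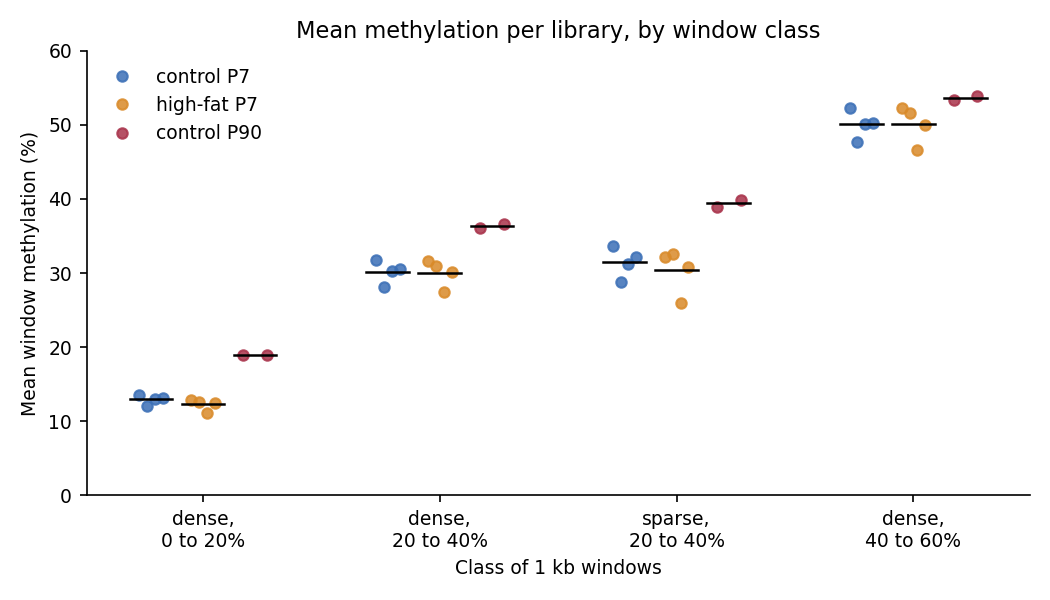
Mean methylation per library (percent, y axis) for 4 classes of 1 kb windows (x axis); each point is 1 library and each line the mean of its group. In the dense windows at 20 to 40%, both control P90 libraries (36.1% and 36.7%) lie above all P7 libraries, as they do in the other 3 classes shown. The high-fat P7 levels chose the classes and are shown as description only.

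At an adjusted p under 0.05 (moderated logistic model with limma's variance moderation, Benjamini-Hochberg over all 86065 windows), 707 members were higher at P90 (31.4%) and 59 lower (2.62%). Over all tested windows 8.11% were called higher and 5.3% lower, and over all with D of 17 or more 10.3% and 5.71%. Among dense windows outside the set the shares were 7.87% and 6.06%. Windows of similar level without the density had much the same share: 34.1% of the 4167 windows at 20 to 40% with D under 17 were higher and 3.12% lower. Of the 1578 dense windows under 20%, 38.1% were higher and 1.14% lower, and of the 2247 dense windows at 40 to 60%, 20.9% and 6.01%. At 20 to 40%, the share of gains was thus above that of all windows in both dense and sparse windows, and no difference between the classes was tested. Both P90 libraries were above all 4 control P7 libraries in 1000 members (44.4%, against 18.2% of all windows) and below all 4 in 130 (5.77%, against 12.4%). Of the 707 windows called higher, 698 had no overlap with control P7 and 653 none with any of the 8 P7 libraries. Of the 59 called lower these counts were 53 and 40. The call on the same control libraries fixes these counts in part. Those over 8 P7 libraries also include the high-fat levels that the rule used, so they are description only.

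The 1404 members that reach D of 17 without the doubled positions gained less: 365 were higher (26.0%) and 30 lower (2.14%), with a median change of 3.75 points. The other 850 had 342 higher (40.2%) and 29 lower (3.41%), with a median of 8.01 points. Over all tested windows the shares higher were 12.9% with D of 17 or more so counted and 7.55% below it. Shares also rose with the number of used sites: 11.4% of members with 3 or 4 sites were higher, 26.8% with 5 to 7, 41.1% with 8 to 12 and 46.5% with 13 to 89, where all windows had 6.09%, 8.58%, 11.4% and 16.8%. Median changes rose with it too, from 2.30 points at 3 or 4 sites to 7.32 points at 13 or more. By level in the high-fat P7 libraries, 38.9% of members at 20 to 25% were higher and 25.3% of those at 35 to 40%. By chromosome the share ran from 24.5% on chromosome 6 to 43.5% on chromosome 5.

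The median level of the windows called higher was 28.3% at P7 and 44.5% at P90, with a median gain of 15.0 points (5th percentile 8.64, 95th 27.5). Of them 161 gained 20 points or more and 227 reached 50% or more at P90. Windows called lower went from 32.0% to 20.8%, a median change of -10.9 points, and 27 of the 59 were under 20% at P90. Every used site had the window's direction in 428 of the windows called higher and 35 of those called lower, which the call on the same sites' summed reads fixes in part. Of the 79 pairs of adjacent members 23 had both windows called, in the same direction in all 23. In control P90, 1406 members stayed at 20 to 40%, 750 were at 40% or more (58 of them at 60% or more) and 98 were under 20%.

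**Figure D2:**
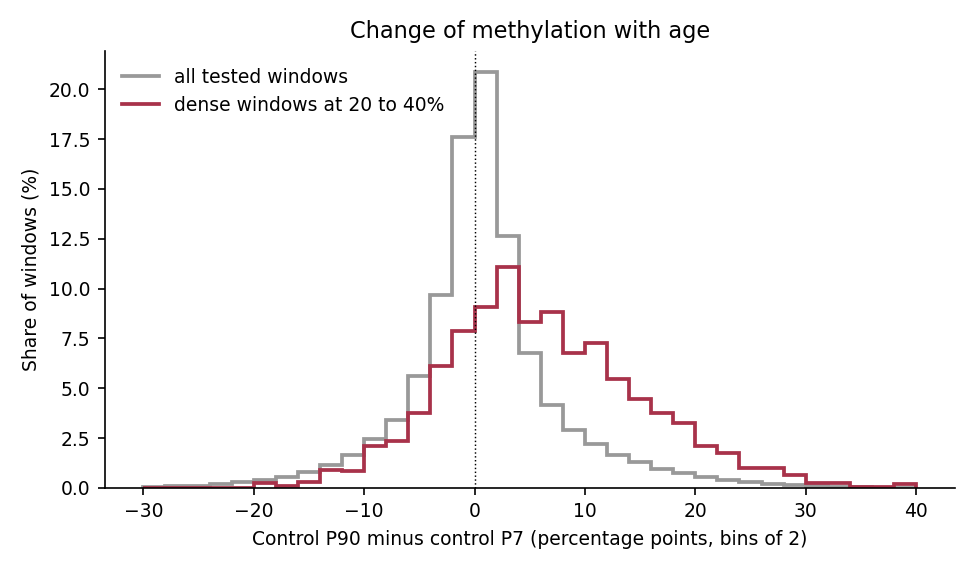
Share of windows (percent, y axis) by the difference between control P90 and control P7 in bins of 2 percentage points (x axis), for the 2254 dense windows at 20 to 40% and all 86065 tested windows. The dense windows at 20 to 40% are shifted to the right, with a median of +5.34 points against 0.518. Windows at 20 to 40% with D under 17, not shown, had a median of +7.47 points.

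Gains were found at CpGs of low and middle level and hardly at the methylated ones. CpGs were sorted here by their level in the high-fat P7 libraries, which the age contrast does not use. The 1841 CpGs under 10% changed by a median of +3.56 points, the 4037 at 10 to 20% by +7.13, the 7604 at 20 to 40% by +7.35, the 3089 at 40 to 60% by +4.92, the 813 at 60 to 80% by +2.18 and the 603 at 80% or more by +0.146. The share of CpGs higher at P90 was 74.3% in the lowest of these classes, 77.9% in the next and 51.9% in the highest.

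**Figure D3:**
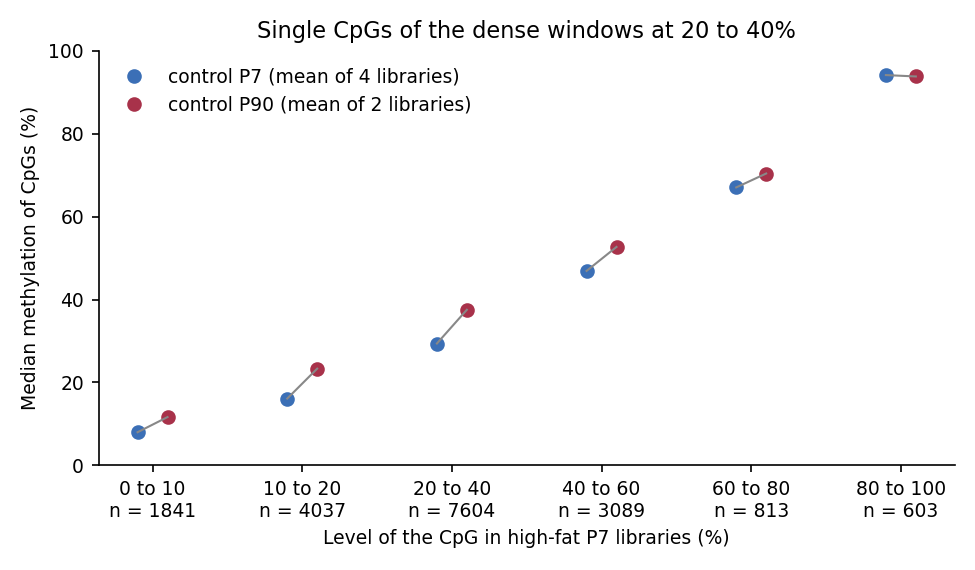
Median methylation of single CpGs (percent, y axis) in control P7 and control P90, for the CpGs of the dense windows at 20 to 40% sorted by their level in high-fat P7 libraries (x axis, percent; n is the number of CpGs). The step from P7 to P90 is widest at 10 to 40% (+7.13 and +7.35 points) and near 0 at 80 to 100% (+0.146).

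At listed mitochondrial CpGs, a sequence held to be largely unmethylated, the percent of reads called methylated was 0.284 to 0.352 in the P7 libraries and 0.276 and 0.285 in the 2 P90 libraries. Dense windows at 80 to 100% had means of 90.0% to 91.3% at P7 and 90.2% and 90.1% at P90.

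By window, the 8 smallest p-values among gains belonged to windows without a matched promoter. At chr7:143710001-143711000 (22 sites, 907 to 1734 reads per library) the control P7 libraries had 26.0%, 28.0%, 26.0% and 29.2% and the P90 libraries 64.5% and 60.3%, and all 22 sites were higher (adjusted p = 4.33e-10). At chr6:33531001-33532000 (14 sites, 562 to 1053 reads) the values were 30.3%, 24.7%, 27.3% and 28.1% against 63.9% and 57.3% (adjusted p = 1.61e-08). In both, each P90 library stood more than 20 points above every P7 library. At chr19:25123001-25124000, with 28 sites, they were 19.6%, 18.1%, 20.4% and 22.4% against 46.1% and 43.5%. At chr1:203761001-203762000, with 7 sites, they were 21.5%, 12.2%, 19% and 24.9% against 57.6% and 60.8%, the largest of these 8 gains at 39.8 points. At chr4:174781001-174782000 the means were 30.1% ± 1.56 (SD, n = 4) and 62.9% ± 3.36 (SD, n = 2), and at chr2:258817001-258818000 29.5% ± 4.27 and 62.3% ± 0.123. The other 2, chr1:218378001-218379000 and chr6:11297001-11298000, each gained 38.2 points. All 8 were called under each alternative run for single windows, and every site of each was higher.

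Losses were smaller. At chr17:6925001-6926000 (8 sites, 309 to 650 reads) the control P7 libraries had 25.1%, 24.9%, 25.9% and 23.2% and the P90 libraries 4.9% and 6.0%, a difference of -19.3 points (adjusted p = 3.33e-07). At chr9:15510001-15511000 (11 sites) they had 33.7%, 26.0%, 24.5% and 32.8% against 9.8% and 10.1% (adjusted p = 8.5e-06). Both windows fell below the intermediate range, with every site lower. At chr7:119224001-119225000 the means were 42.9% ± 3.43 (SD, n = 4) and 24.5% ± 1.54 (SD, n = 2), at chr17:16403001-16404000 24.8% ± 4.68 and 11.2% ± 3.40, and at chr7:121481001-121482000, with only 3 sites, 25.6% ± 3.90 and 8.88% ± 0.602. At chr19:25044001-25045000 they were 33.7% ± 2.47 and 19.8% ± 0.594, and at chr5:78563001-78564000 25.4% ± 2.78 and 12.9% ± 2.88. The eighth, chr1:81152001-81153000, holds the matched promoter of LOC103691053, a gene without a name in RefSeq, but no used site lay inside that promoter. The window had 42.6%, 27.1%, 38.7% and 37.5% against 18.5% and 15.2%. In all 8 windows the P90 libraries lay below every P7 library.

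**Figure D4:**
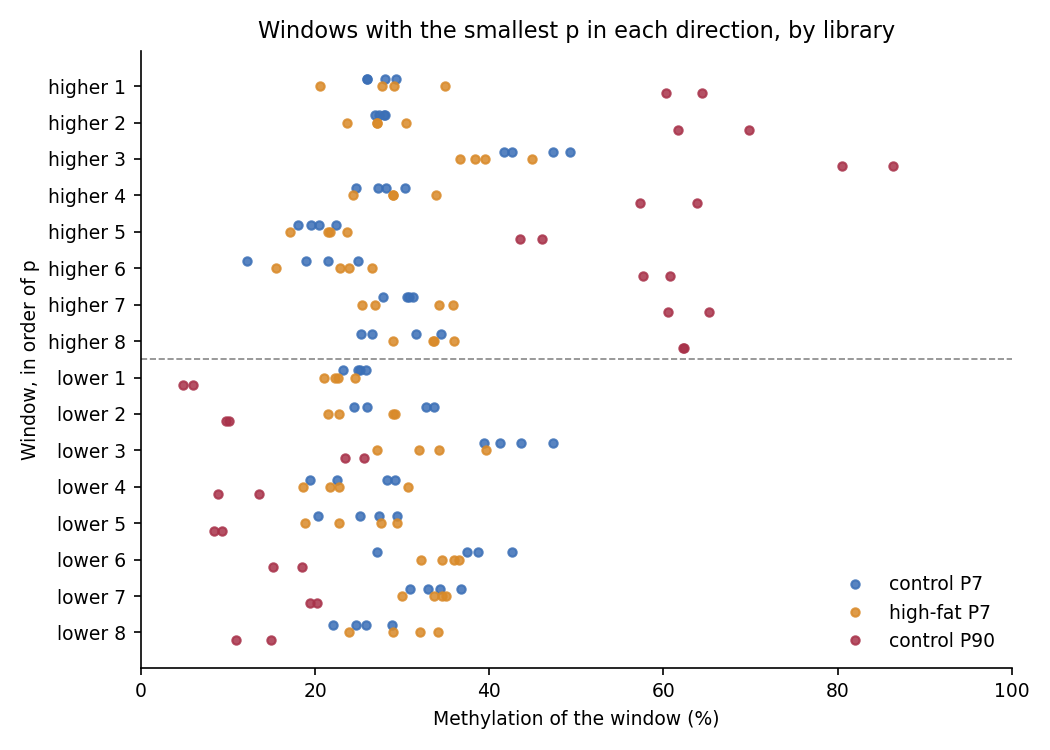
Methylation (percent, x axis) of the 16 windows with the smallest p, 8 higher and 8 lower at P90, in order of p (y axis); each point is 1 library of control P7, high-fat P7 or control P90. In every window the 2 control P90 libraries lie outside the range of the 8 P7 libraries, by the widest margins in the windows that gained. The rule used the high-fat P7 levels, which are shown as description only.

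The windows with the most listed CpGs behaved in different ways. At chr1:78810001-78811000 (D of 149, 89 sites, 2213 to 4364 reads) the control P7 libraries had 27.8%, 22.6%, 25.4% and 28.5% and the P90 libraries 40.9% and 38.7% (adjusted p = 6.18e-06), with 85 of 89 sites higher. At chr12:13363001-13364000 (D of 144, 76 sites) they had 27.0%, 24.6%, 28.7% and 28.3% against 36.8% and 38.4% (adjusted p = 0.000128), a call lost with limma on log2 ratios (adjusted p = 0.110). At chr1:124653001-124654000 D was 132 but only 4 sites could be used, and the levels of 18.9%, 21%, 26.3% and 18.1% overlapped those of 19.2% and 26.1% (adjusted p = 0.817).

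Matched promoters lay in a minority of the windows, and promoters that could not be matched are not counted. A matched promoter lay in 8.74% of the windows, compared with 7.48% of dense windows under 20%, 8.19% of those at 40 to 60%, 2.32% at 60 to 80% and 0.583% at 80 to 100%. These 197 windows had a median change of 2.35 points, with 36 higher (18.3%) and 1 lower, and the other 2057 a median of 5.67 points, with 671 higher (32.6%) and 58 lower. The former had fewer used sites (median 5 against 8) and, without doubled positions, a higher D (median 35 against 18). Over all members the share called higher varied with both. The difference between the 2 sets was not tested. Of the 36 gains 14 were called under every alternative run for single windows and 22 lost their call under at least 1, of which 20 did so with limma. Over the 594 used CpGs inside matched promoters, the median level went from 21.8% to 29.1% at 250 to 150 bases before the start, from 25.6% to 30.9% at 150 to 50 bases before it and from 24.2% to 31.1% within 50 bases of it. The median change per CpG was smaller than these steps, at 2.53, 3.35 and 4.07 points.

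LOC134480864, a RefSeq gene without a name, had the largest gain among windows with a matched promoter. Its window, chr10:85443001-85444000 (55 sites, 1405 to 2964 reads), had 27.4%, 22.4%, 28.5% and 31.7% in control P7 and 63.1% and 54.1% in control P90 (adjusted p = 1.61e-07). All 25 CpGs in capitals in its sequence above were higher at P90. They ran from 8.33% to 48.9% at P7 and from 18.5% to 83.8% at P90, with gains of 10.1 to 52.6 points. The last used CpG before the start lay 68 bases from it, so the stretch next to the start was not measured there.

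Tbx1 encodes a T-box transcription factor of pharyngeal and heart development, and was the only developmental transcription factor on the list with a matched promoter in a called member. Its window, chr11:86553001-86554000 (21 sites, 524 to 1417 reads), had 19.6%, 25%, 20.8% and 20.7% in control P7, 23.3%, 22.1%, 21.4% and 19.4% in high-fat P7 and 38.6% and 43.2% in control P90 (adjusted p = 3.15e-06). All 21 sites were higher. Around the start, the CpG 40 bases before it went from 21.6% to 54.0% and the CpG 5 bases after it from 9.14% to 43.6%. A CpG 84 bases before the start stood at 98% and 100% and had no room to gain.

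Myo5c encodes an unconventional myosin of epithelial cells that carries secretory vesicles. Its window, chr8:82171001-82172000 (19 sites, 607 to 1219 reads), had 20.6%, 18.5%, 21.7% and 17.9% in control P7 and 34.7% and 35.7% in control P90 (adjusted p = 2.57e-05). The CpG 134 bases before the start went from 15.2% to 44.6%, while that 10 bases before it went from 6.07% to 11.1%. Low CpGs lay next to the start and the larger gains lay further from it. Krtcap3, which encodes a keratinocyte membrane protein, had 30.8%, 30.9%, 27.7% and 33.9% against 44.0% and 46.6% at chr6:26486001-26487000 (adjusted p = 0.000996). Its 7 CpGs in capitals gained 2.12 to 21.7 points.

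**Figure D5:**
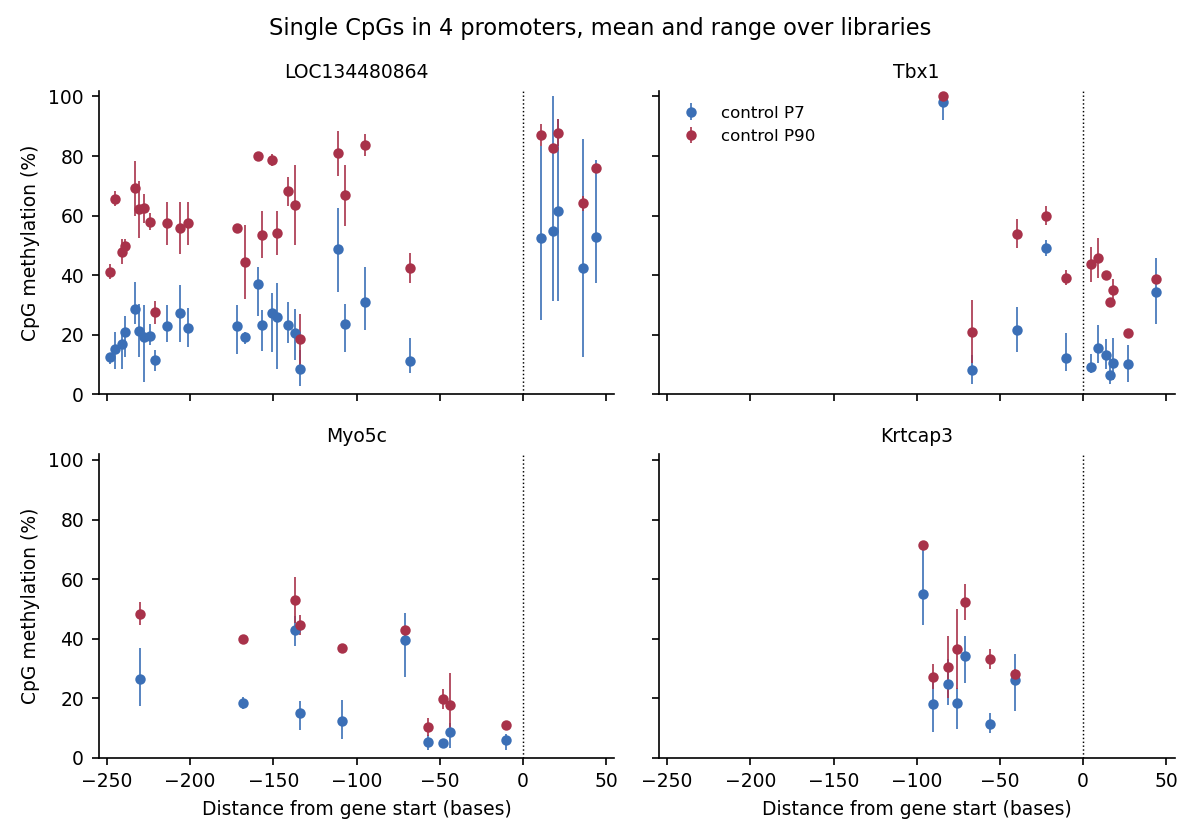
Methylation of single CpGs (percent, y axis) by distance from the gene start in bases (x axis) in the promoters of LOC134480864, Tbx1, Myo5c and Krtcap3; points are means and bars the lowest and highest library, of 4 control P7 and 2 control P90 libraries. The control P90 means lie above the P7 means at all CpGs shown, least at the highly methylated CpG of Tbx1.

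Other named genes with a window called higher under every alternative run for single windows were Prom2, Eps8l2, Pygl, Atp2a3 and Pakap. Prom2 encodes a membrane protein of epithelial protrusions, Eps8l2 an actin regulator and Pygl the liver form of glycogen phosphorylase. Atp2a3 encodes a calcium pump of the endoplasmic reticulum. Prom2 at chr3:120106001-120107000 had 19.98%, 22.4%, 22.2% and 25% in control P7 and 43.3% and 37.6% in control P90. Eps8l2 at chr1:214328001-214329000 had 28.6%, 26.7%, 26.5% and 26.0% against 44.5% and 45.9%. Pygl at chr6:92643001-92644000, with no used site inside its matched promoter, had 25.3%, 30.9%, 24.9% and 26.9% against 45.7% and 42.9%. In none of these 3 did the age groups overlap. Atp2a3 at chr10:59529001-59530000 went from 19.3% ± 3.21 (SD, n = 4) to a mean of 32.8% and Pakap at chr5:74942001-74943000 from 21.3% ± 2.51 to 40.4%, where the start of LOC134486938 lies in the same window.

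Tet3, which encodes an enzyme that oxidises 5-methylcytosine, had starts in 2 windows, and the levels given are of the whole window. In the first of them no used site lay inside the matched promoter. At chr4:115156001-115157000 (5 sites, 95 to 207 reads) control P7 had 29%, 32.6%, 16.9% and 31.1% and control P90 38.4% and 51.8% (adjusted p = 0.0174). The groups did not overlap, but the call was lost without control P7 replicate 3 (adjusted p = 0.0566) and with limma (0.0896). It was also lost with reads thinned to 10 (0.648) and with a replicate block by title number (0.157). Without control P90 replicate 2, which left 1 P90 library, the change was 11.0 points instead of 17.6. At chr4:115142001-115143000 control P7 had 32.3%, 30.8%, 37.2% and 36.6% and control P90 30.4% and 36% (adjusted p = 0.933). Whether the 2 windows change differently was not tested. Tet3 was the only gene of the methylation machinery with a matched promoter in a tested window, of 9 listed genes with a RefSeq promoter.

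Imprinted genes are methylated on 1 parental copy. Of 24 listed genes with a RefSeq promoter, 5 had a matched promoter in a tested window and 4 of these lay in members: Peg10 and Sgce, which share a window and are expressed from the paternal copy in mouse, Igf2r and Plagl1. None was called. Peg10/Sgce at chr4:29795001-29796000 (15 sites) had 30.8%, 36.5%, 31.8% and 32.6% in control P7 and 41.1% and 35.5% in control P90 (adjusted p = 0.163). Its sites ranged from 21.8% to 37.2%. Plagl1 at chr1:7219001-7220000 (24 sites, 33.4% to 45.9%) had 46.6%, 39.8%, 34.1% and 38.0% against 47.1% and 41.6% (adjusted p = 0.370). None of these 24 sites lay inside its matched promoter. Igf2r at chr1:48176001-48177000 was uneven, with 4 sites from 2.44% to 94.5%, and had 31.6%, 35.1%, 30.4% and 21.2% against 36.7% and 34.5% (adjusted p = 0.363). The site at 94.5% was 1 strand of the CpG 27 bases before the start, whose 2 strands averaged 50.2% in control P7. The range was thus in part a difference between the strands of 1 CpG.

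Of 111 listed developmental transcription factors with a RefSeq promoter, 7 had a matched promoter in a tested window and 4 in a member. Besides Tbx1 these were the forkhead genes Foxa3 and Foxl3 and the germ cell gene Sox30, none of them called. Foxl3 at chr12:17904001-17905000 had 20.03%, 22.1%, 27.7% and 26.0% against 27.2% and 23.4% (adjusted p = 0.809), and its 5 CpGs in capitals gained 3.35 to 6.67 points. Foxa3 had 32.8%, 44.9%, 33.7% and 25.4% against 34.1% and 28.1%, and Sox30 13.4%, 25.8%, 16.7% and 22.6% against 22.7% and 30.7% (adjusted p = 0.828 and 0.139). In all 3 the groups overlapped. No promoter of the protocadherin clusters (34 genes), the germline genes (19), the stress and feeding genes (16) or the markers of neurons (13), oligodendrocytes (8), astrocytes (8) and microglia (4) was matched in a member, and few of them in any tested window (1, 4, 2, 1, 0, 2 and 0). Tissue identity could thus not be checked from these windows.

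The 6 remaining P90 libraries covered few of the windows: 398 to 1286 of the 2254 had 3 sites of 10 reads in a library, and 69 had them in all 6. Their medians in those windows were 55.6% to 71.3%, where the control P90 libraries used above had 35.9% to 37% in the same windows, and 14.3% to 34.7% of the windows read 95% or more. Mitochondrial CpGs read 1.21% to 6.35% methylated in them. High-fat P90 libraries all belonged to these 6, so the diet contrast at P90 was not analysed here.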

How the data were processed

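The deposited files give methylated and unmethylated read counts per CpG cytosine, not normalized, 1 file per library; the kit was Ovation RRBS Methyl-Seq per the labels' protocols, and the submitters' processing notes name the build Rnor_6.0. The aligner and caller are not given in sources used here. No file lists a site with 0 methylated reads, and such a site cannot be told from an unread one. The 10 libraries used held 22087054 to 63677193 reads and the other 6, whose titles carry a lane, 7802161 to 21333037. Replicates differed by more than sampling noise (mean chi-square per site 1.37 to 1.98).

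Reads of at least 3 sites with 10 or more reads in all 10 libraries were summed per 1 kb window. Control P90 (n = 2) and control P7 (n = 4) were compared per window by a quasi-binomial logistic model, two-sided F test, with the dispersion moderated over windows (limma 3.58.1, R 4.3.3; 4 residual and a median of 21.4 prior degrees of freedom, so that p-values rest mostly on a spread shared over windows; never below 1). P-values were adjusted by Benjamini-Hochberg. On simulated data with 200 of 86065 windows changed in this comparison, it recovered 19.4%, 86.6% and 95.5% of changes of 10, 20 and 30 points, and 14.1% of its calls were false. Named windows were 8 gains and 8 losses of smallest p, 3 with the most CpGs, 2 with the smallest and 2 with the largest SD, the longest runs, those at the bounds and those of listed genes. The members and lists were chosen with earlier results of these data known.

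Gene names were to be used only with an annotation of Rnor_6.0. Naming by promoter was added after the values could be seen, and the called promoters described were chosen after their values were seen. RefSeq GRCr8 promoters (33469) were matched by exact CpG spacing: at least 8 CpGs, at least 90% of listed positions, 1 place only and the same chromosome number. These minimums were set after several had been tried. Of 3397 promoters matched at 1 place, 99.0% fell on the same chromosome number before that was required. Only CpG-rich promoters can be matched so. No coordinate was converted.

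Alternatives were another read or site minimum, an upper limit on coverage, merged strands, edgeR 4.0.16, limma on log2 ratios with a pseudocount of 1, Fisher's exact test, dispersion from 10 libraries, thinning to 10 reads, a difference of 10 points, a replicate block, and each library left out in turn. Added after seeing the data were the count of unlisted sites as unmethylated, with imputed read numbers, and 2 narrower sets of windows. Reads carry no molecular identifiers. Python 3.11.15 was used.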

Additional observations from a re-analysis of the deposited data

Results flagged for a closer look

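In 2 of 66 groups of 4 libraries looked at, 1 library lay far from the other 3, with a gap to its nearest neighbour divided by the range of the group above Dixon's 95% critical value. Chance alone gives about 1 in 20. In the window chr3:154044001-154045000, control P7 replicate 3 had 82.4% against 34.6%, 33.1% and 41.3% (gap over range 0.833). Without it, control P90 was 8.49 points above control P7 (adjusted p = 0.0385) instead of a difference of -3.03 points. In the Tet3 window chr4:115142001-115143000, high-fat P7 replicate 3 had 34.7% against 37.3%, 37.3% and 36.9% (gap over range 0.8293), all within 3 points.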

How the results depend on the processing

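Every alternative run left more members higher than lower and a positive median change; the cause of the shifts in count was not tested. Limma on log2 ratios called 330 higher and 15 lower, all of them also called by the logistic model. Thinning to 10 reads gave 422 and 27. Fisher's exact test on pooled reads, which ignores the spread between libraries, gave 1045 and 162. A difference of at least 10 points left 622 and 35, and edgeR called 582 and 40. Leaving out each library gave 467 to 721 higher, 36 to 70 lower and a median change of 4.73 to 5.74; with 1 P90 library left, that library is assumed to vary like the others, and the counts were 531 and 36 without control P90 replicate 1 and 467 and 38 without replicate 2. The title numbers 3 and 4 occur at both ages, and the deviations of libraries sharing them had r over windows of 0.0153 and 0.00106. With only 2 P90 libraries, whose deviations mirror each other, this cannot tell whether such libraries share an origin. A replicate block by title number gave 517 higher and 25 lower (22.9% and 1.11%, against 4.70% and 2.65% of all tested windows). Members with D of 17 or more without doubled positions (1404) had 365 higher, 30 lower and a median change of 3.75. Without the windows holding a CpG with discordant strands, 638 were higher and 58 lower of 2027. With unlisted sites counted as unmethylated, 767 were higher and 48 lower (34.0% and 2.13%, against 8.21% and 5.12% of all tested windows). The median level was then 24.6% at P7 and 29.8% at P90. In that setting 753 members fell below 20% at P7, so levels here are upper values where unlisted sites were read.

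Of 66 single windows, 34 kept direction and side of the threshold throughout. Leaving out each library turned the direction of 6 windows, none of them called, with changes from -0.517 to 3.26 at Foxl3, -6.13 to 0.460 at Foxa3, -3.79 to 1.82 at the second Tet3 window, -1.90 to 5.01 at chr1:124653001, -0.262 to 0.690 at chr16:74072001 (and -0.00990 with unlisted sites) and -7.96 to 8.49 at chr3:154044001. Calls appeared at chr9:42589001 without control P7 replicate 2 (adjusted p = 0.0291), and with unlisted sites at chr1:266482001 (0.0440) and Igf2r (0.00769). On simulated data most changes of 10 points were missed; recovery by number of sites or reads was not simulated.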
